A study of Mus musculus with 12 samples.

Results

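The integrins and adhesion molecules of CD4+ T cells were followed as 10 genes chosen by name: Itgal, Itgb2, Itga4, Itgb1, Itgb7, Itgae, Icam1, Icam2, Selplg and Cd44. All 10 were found among the 35275 genes of the expression table. Poly-A RNA sequencing had been carried out on CD4+ T cells purified from 12 individual female mice that formed 4 groups of 3. C57BL/6 (B6) mice and SLE123 mice, which are B6 animals congenic for the NZM2410-derived lupus intervals Sle1, Sle2 and Sle3 (labelled B6.NZMSle1/Sle2/Sle3), were either left untreated or given anti-CD45RB. The antibody (clone MB23G2) binds a glycosylated form of the CD45 phosphatase and was injected at 100 µg on 5 occasions between day 0 and day 7. Mice were 9 weeks old by the study's methods and up to 12 weeks by its legend. Labels name no control antibody for the untreated mice. The cells were enriched by negative magnetic selection to about 98% purity by the methods, which also describe a CD25 sort that the sample titles do not name. Each SLE123 and B6 library came from bulk cells, so fewer cells of a type and less RNA per cell could not be told apart.

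Integrins are heterodimers of an alpha and a beta chain that hold a T cell to other cells or to matrix once they have been activated from inside the cell. Itgal and Itgb2 encode LFA-1, the main integrin of the T cell synapse, and Icam1 and Icam2 encode ligands of it. Itga4 pairs with Itgb1, which gives a receptor for VCAM1 and fibronectin, or with Itgb7, which gives the gut-homing receptor for MAdCAM1, while Itgae pairs with Itgb7 into the E-cadherin receptor of epithelial T cells. Selplg encodes PSGL-1, the selectin ligand of rolling leukocytes, and Cd44 encodes the hyaluronan receptor that is high on antigen-experienced T cells.

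Library depth ran from 13563705 to 23642948 fragments, as recovered from the deposited values, and 3 fragments on a transcript of 2000 bases corresponded to between 0.0634 and 0.111 FPKM, the unit of level used here, in which fragments are scaled to transcript length and library depth. The summed level of 9 T cell markers was 2610 to 3530 FPKM in every library, and that of 2 CD8 markers was 4.23 to 19.4 FPKM. Markers of other cells differed between the groups. Plasma cell markers (5 genes) summed to 57.3 to 76.8 FPKM in untreated B6 and to 1940 to 5020 FPKM in untreated SLE123 mice, and immunoglobulin genes took 0.0895% to 0.133% and 5.06% to 12.2% of the fragments in the same groups. Immunoglobulin genes took 0.151% to 0.336% of the fragments of treated B6 mice and 2.51% to 5.38% of those of treated SLE123 mice. Albumin mRNA (Alb), a liver transcript, was above 1 FPKM in 7 libraries (all 6 B6 mice and treated SLE123 mouse 1) and not in the other 5. In the untreated SLE123 group, transcripts over 5000 bases lay above the group mean in mouse 1 (median 0.15 on the log2 scale) and below it in mouse 2 (median −0.16), while mouse 3 was near it (median 0.00). The part of any of these in the results was not tested.

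All 10 genes passed the filter of a mean of 0.5 FPKM over the 12 mice, and their levels are compared here per transcript length, in FPKM. Itgb7 had the highest mean level of the 10 in every group, from 391 ± 18.7 FPKM (SD, n = 3) in treated B6 to 262 ± 58.5 in untreated SLE123 mice, although its range met that of Itgb1 in the latter. Itgae was the lowest of the 10 in each group, between 0.752 ± 0.131 and 4.38 ± 0.132 FPKM. The order in between was not the same in both strains. In untreated B6 mice Itgb2 (214 ± 1.52 FPKM), Selplg (196 ± 8.66), Itgal (164 ± 8.87) and Itgb1 (70 ± 5.75) followed Itgb7 with ranges apart. In untreated SLE123 mice Itgb1 (211 ± 22.9 FPKM) stood directly below Itgb7, and the ranges of Itgb1, Itgal (203 ± 29.5) and Itgb2 (188 ± 7.55) overlapped from each to the next.

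**Figure D1:**
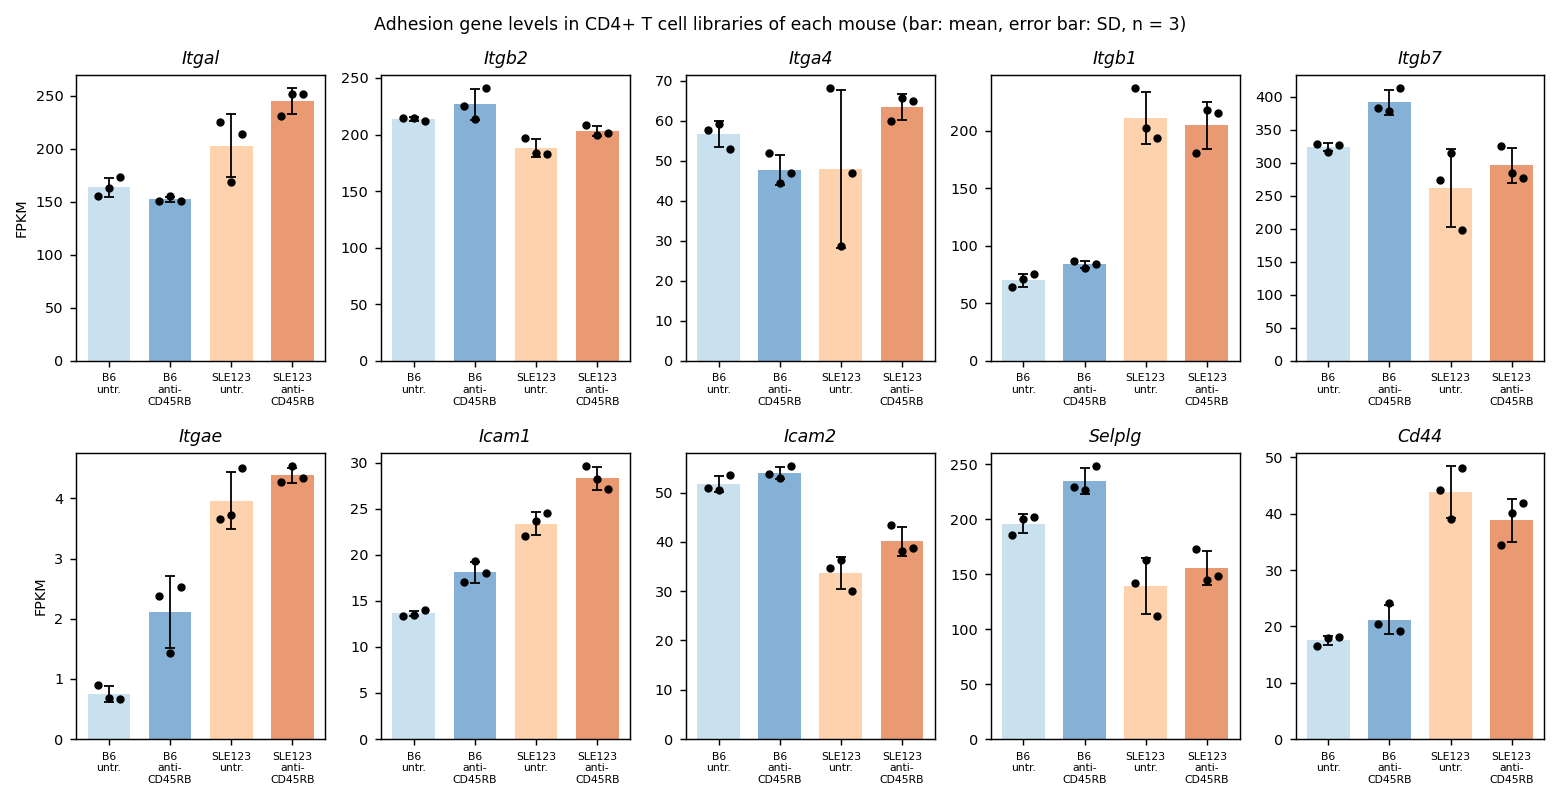
Level of each of the 10 genes in FPKM (vertical axes, each from 0) in the 4 groups of 3 mice; points are mice, bars are group means and error bars are SD. Itgb1, Itgae, Icam1 and Cd44 lie higher in all SLE123 mice than in all B6 mice, Selplg and Icam2 lie lower, and Itga4 spreads from 28.6 to 68.2 FPKM within the untreated SLE123 group.

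The genes lie on 8 chromosomes (mouse assembly GRCm38). The LFA-1 chains are at chr7:127296260-127335138 (Itgal, plus strand) and chr10:77530252-77565708 (Itgb2, plus strand). Itga4 is at chr2:79255426-79333123 on the plus strand, where 1124 exon bases also belong to Cerkl on the opposite strand, and the strand setting of the counting was not stated; Cerkl was at 0.548 to 1.55 FPKM. Itgb1 is at chr8:128685654-128733200, Itgb7 at chr15:102215995-102231944, Itgae at chr11:73090583-73147446, Icam1 at chr9:21015985-21028817 (with 511 exon bases shared with the antisense gene Gm47079, whose level was not analysed here), Icam2 at chr11:106377656-106388075, Selplg at chr5:113818536-113832644 and Cd44 at chr2:102811141-102901665. At least 3926 fragments per library lay behind the values of Itgb1, 10672 behind those of Itgal and 12100 behind those of Itgb7. Itgae had the fewest, 41 to 410, so its lowest values carried the largest counting error.

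Of Itgb1, Itgae, Icam1 and Cd44, the genes higher in SLE123 mice under both conditions, 3 had a promoter window in the RefSeq table (build GRCm38.p6, 250 bases before to 50 after the annotated start, 5′ to 3′ in the direction of the gene), which covered 5 of the 10 genes. They are shown because these members moved together between the strains. Capitals mark the GC box GGGCGG, the short CRE TGACG and the TATA box TATAAA, read on both strands, so that CCGCCC is a GC box on the other strand. The windows are chr8:128685404-128685703 (plus strand) for Itgb1, chr9:21015690-21015989 (plus strand) for Icam1 and chr2:102901616-102901915 (minus strand) for Cd44.
Itgb1: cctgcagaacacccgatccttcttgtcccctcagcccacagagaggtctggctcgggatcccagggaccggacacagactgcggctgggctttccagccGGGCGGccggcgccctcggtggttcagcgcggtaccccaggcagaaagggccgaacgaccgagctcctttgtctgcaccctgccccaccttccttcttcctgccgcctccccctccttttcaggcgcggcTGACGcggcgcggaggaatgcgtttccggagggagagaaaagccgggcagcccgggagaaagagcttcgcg
Icam1: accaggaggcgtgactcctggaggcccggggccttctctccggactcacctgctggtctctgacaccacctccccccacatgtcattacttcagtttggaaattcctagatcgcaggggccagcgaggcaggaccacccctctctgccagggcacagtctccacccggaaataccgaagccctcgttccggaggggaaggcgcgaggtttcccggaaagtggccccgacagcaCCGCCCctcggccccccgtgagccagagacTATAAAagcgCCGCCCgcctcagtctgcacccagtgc
Cd44: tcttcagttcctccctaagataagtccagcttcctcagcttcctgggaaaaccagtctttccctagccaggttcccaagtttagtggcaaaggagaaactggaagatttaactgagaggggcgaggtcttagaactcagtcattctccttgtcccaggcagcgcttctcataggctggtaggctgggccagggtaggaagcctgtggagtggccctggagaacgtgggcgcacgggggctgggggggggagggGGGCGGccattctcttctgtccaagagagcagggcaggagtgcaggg
All 3 windows held a GC box, which 35.7% of the 32851 windows of the table held: 1 in Itgb1, 2 in Icam1 and 1 in Cd44. Of the other members with a window, Itga4 held 1 GC box and Itgb7 held none, so the GC box was not particular to the 3. The short CRE, part of the element that CREB and ATF factors bind, was present in Itgb1 alone of the 3, at position −21 from the start, and in 20.8% of all windows. The letters TATAAA stood in Icam1 alone of the 3, at position 14 after the annotated start and not before it, and in 13.6% of all windows. The full CRE TGACGTCA (1.79% of all windows), CCAAT (37.4%), the Ets site CCGGAAGT (3.89%) and the NF-kB pattern GGGRNNYYCC (8.46%) had no match in the 3 windows. In that pattern R is A or G, Y is C or T and N is any base. The absence says only that these exact letters are not there, and looser forms were not searched. The Icam1 window holds tggaaattcc, which departs from the NF-kB pattern at its leading base only. Such matches describe the sequence and are not binding sites.

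The first question was what anti-CD45RB did to these genes in B6 mice. Itgb1, Itgb7, Itgae, Icam1 and Selplg were higher in treated than untreated B6 mice, none was lower, and Itgal, Itgb2, Itga4, Icam2 and Cd44 did not pass the test. These 5 of 10 stand beside 14.9% of all 13115 genes tested that were called in this comparison (8.74% higher and 6.12% lower). The test was limma on log2(FPKM + 1) with adjustment over all genes tested and a threshold of 0.05, and folds on this scale understate changes of low genes such as Itgae. Over the 10 genes the median difference was 0.26 on the log2 scale, against 0 over all genes.

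Among the integrin beta chains, Itgb7 read 383, 378 and 413 FPKM in treated B6 mice 1, 3 and 5 and 328, 317 and 327 FPKM in untreated B6 mice 3, 4 and 5. No treated mouse fell within the untreated range, and the difference was 0.27 ± 0.0404 on the log2 scale (SE, adjusted p = 0.00885 in limma). Itgb1, the beta chain of the matrix-binding integrins, read 86.8, 81.0 and 83.8 FPKM in treated and 63.8, 70.9 and 75.2 FPKM in untreated mice. Every treated mouse again lay above every untreated one, with a difference of 0.26 ± 0.0617 (adjusted p = 0.0348 in limma). Itgae, the chain that pairs with Itgb7 for E-cadherin, read 2.38, 1.43 and 2.52 FPKM in treated and 0.903, 0.69 and 0.663 FPKM in untreated mice. Its treated mean was 2.81-fold the untreated mean, the largest fold of the 10, with a difference of 0.81 ± 0.154 (adjusted p = 0.0185 in limma), and treated mouse 3 was the lowest of its group.

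Icam1, the inducible LFA-1 ligand, read 17.0, 19.3 and 18 FPKM in treated and 13.4, 13.5 and 14 FPKM in untreated B6 mice. The untreated mice were within 1 FPKM of each other and below all treated ones, with a difference of 0.38 ± 0.0557 (adjusted p = 0.00793 in limma). Icam2, the constitutive ligand, was at 54 ± 1.21 and 51.7 ± 1.63 FPKM (SD, n = 3), with overlapping groups and an adjusted p of 0.276 in limma. Selplg, the selectin ligand, read 229, 227 and 248 FPKM in treated and 186, 200 and 202 FPKM in untreated mice, without overlap. The difference was 0.26 ± 0.0481 (adjusted p = 0.0177 in limma).

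The alpha chains of the major integrins did not pass the test. Itga4 read 51.9, 44.4 and 47.0 FPKM in treated and 57.8, 59.2 and 53.1 FPKM in untreated B6 mice, with all treated mice below all untreated ones, but the difference of −0.24 had an adjusted p of 0.0529 in limma. Itgal was at 152 ± 2.42 and 164 ± 8.87 FPKM (SD, n = 3; difference −0.10, adjusted p = 0.154 in limma), and its partner Itgb2 at 226 ± 13.6 and 214 ± 1.52 FPKM (0.08, adjusted p = 0.271). Cd44 read 20.4, 24.1 and 19.1 FPKM in treated and 16.6, 17.9 and 18.1 FPKM in untreated mice. These groups did not overlap either, and the adjusted p was 0.0916 in limma for a difference of 0.25. Groups without overlap were found for 6 genes higher and 1 lower of the 10, against 19.4% and 18.6% of all genes.

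Of these calls, those of Itgb7 and Icam1 held without each single library in turn. Itgb1 lost its call without treated mouse 1 (adjusted p = 0.0888 in limma), 3 (0.0645) or 5 (0.0924) and without untreated mouse 3 (0.064) or 4 (0.0976). Itgae lost it without treated mouse 1 (0.0511) or 5 (0.0572) and without untreated mouse 4 (0.0723) or 5 (0.0547), and Selplg without untreated mouse 3 (0.0537) or 4 (0.0576). Itga4 gained a call, lower in treated mice, without treated mouse 1 (−0.30, adjusted p = 0.0317). Without a filter on low values Itgb1 (adjusted p = 0.114), Itgae (0.074) and Selplg (0.0655) lost their calls in limma, and in 1 fit of all 12 mice Itgb1 (0.142), Itgb7 (0.292) and Selplg (0.241) did. The number of members called fell from 5 to 3 without treated mouse 5 or untreated mouse 3 and to 2 without untreated mouse 4.

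Markers of other cells also differed between treated and untreated B6 libraries. Of 6 B cell markers 5 were called higher in treated B6 mice (summed level 25 to 33.5 against 6.11 to 7.3 FPKM), as were 4 of 6 myeloid markers tested (51.8 to 121 against 8.1 to 15.9 FPKM) and 3 of 4 dendritic cell markers tested (5.85 to 7.56 against 1.11 to 1.53 FPKM). Called higher as well were 4 of 5 basophil markers (12.4 to 28.9 against 2.41 to 3.04 FPKM), 3 of 4 platelet markers tested (14.1 to 22.5 against 3.48 to 5.88 FPKM), 2 of 4 NK cell markers (31.1 to 43.6 against 19 to 20.2 FPKM) and 2 of 4 erythroid markers tested (3.65 to 11.7 against 0.706 to 2.16 FPKM). T cell state markers moved too, with 3 of 10 activated or memory markers higher (666 to 827 against 451 to 482 FPKM), 2 of 5 naive markers lower (1490 to 1640 against 1670 to 1760 FPKM) and 3 of 9 T cell markers lower (3090 to 3170 against 3390 to 3520 FPKM). Cd14 and S100a8 were at 0 in 1 untreated B6 library each. Cd8a and Cd8b1 together reached 12.7 to 19.4 FPKM in treated and 11.1 to 13 FPKM in untreated B6 mice. None of 6 regulatory T cell markers was called in limma (3 at an unadjusted p under 0.05). The part of these cells and states in the 5 called genes was not tested.

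In SLE123 mice the same treatment called none of the 10 genes in limma, with 2 (Icam1 and Icam2, both higher) at an unadjusted p under 0.05 (10.4% of all genes) and none in voom. Only 0.0381% of all genes were called here. The smallest adjusted p was that of Icam1 (0.447), which read 29.6, 28.2 and 27.1 FPKM in treated and 22.0, 23.7 and 24.5 FPKM in untreated SLE123 mice, a difference of 0.27 ± 0.075 (SE) without overlap. Icam2 read 43.5, 38.1 and 38.8 FPKM in treated and 34.6, 36.3 and 30.1 FPKM in untreated mice (0.25, adjusted p = 0.466 in limma). These groups did not overlap, nor did those of Itgal and Itgb2, so that 4 genes were higher without overlap and none lower, against 13.7% and 6.02% of all genes. The spread within the untreated group was wide for several members: Itga4 read 68.2, 28.6 and 46.9 FPKM and Itgb7 read 274, 314 and 198 FPKM in untreated SLE123 mice 1, 2 and 3. Itgb1 (−0.04) and Cd44 (−0.17) had differences below 0, which turned to 0.15 and 0.02 when the values were rescaled to TPM, which sets the summed level per length to the same total in every library. That rescaling moved the median of all genes in this comparison from 0.04 to 0.22, that between untreated strains from −0.03 to −0.38, that between treated strains from 0.03 to −0.14 and that of the interaction from 0.04 to 0.23. Of 5 basophil markers 2 were called lower with treatment in SLE123 mice (summed 28.9 to 36.4 against 96.3 to 108 FPKM). No marker of another list was called. B cell (36.7 to 56.5 against 62 to 223 FPKM) and erythroid sums (2.71 to 15 against 29.2 to 45.9 FPKM) were lower too. So were plasma cell, dendritic cell and platelet sums. NK cell sums were higher (22.3 to 29.7 against 17.1 to 19.5 FPKM). The part of these markers in the results was not tested.

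Whether the treatment effect differed between the strains was tested in all 12 mice. No member passed (limma interaction, 3.64% of all genes called), 5 had an unadjusted p under 0.05 against 25.1% of all genes, and voom called 1. The call in voom was Itgae (−1.31, adjusted p = 0.0333), for which limma gave −0.69 (adjusted p = 0.0676). Itgae read 4.28, 4.53 and 4.33 FPKM in treated and 3.65, 3.73 and 4.51 FPKM in untreated SLE123 mice, which overlapped. The others with an unadjusted p under 0.05 were Itgal (0.38, adjusted p = 0.122), Itga4 (0.73, adjusted p = 0.182), Itgb1 (−0.30, adjusted p = 0.191) and Cd44 (−0.43, adjusted p = 0.113). Without untreated SLE123 mouse 1 limma called Itgal (0.46, adjusted p = 0.026), Itga4 (1.02, adjusted p = 0.0104) and Itgae (−0.74, adjusted p = 0.0294), while 22.2% of all genes were called. Without treated B6 mouse 3 it called Itgae (−0.86, adjusted p = 0.0137). The shares of all genes called by voom and without that mouse are not given here, so these calls cannot be weighed against them.

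**Figure D2:**
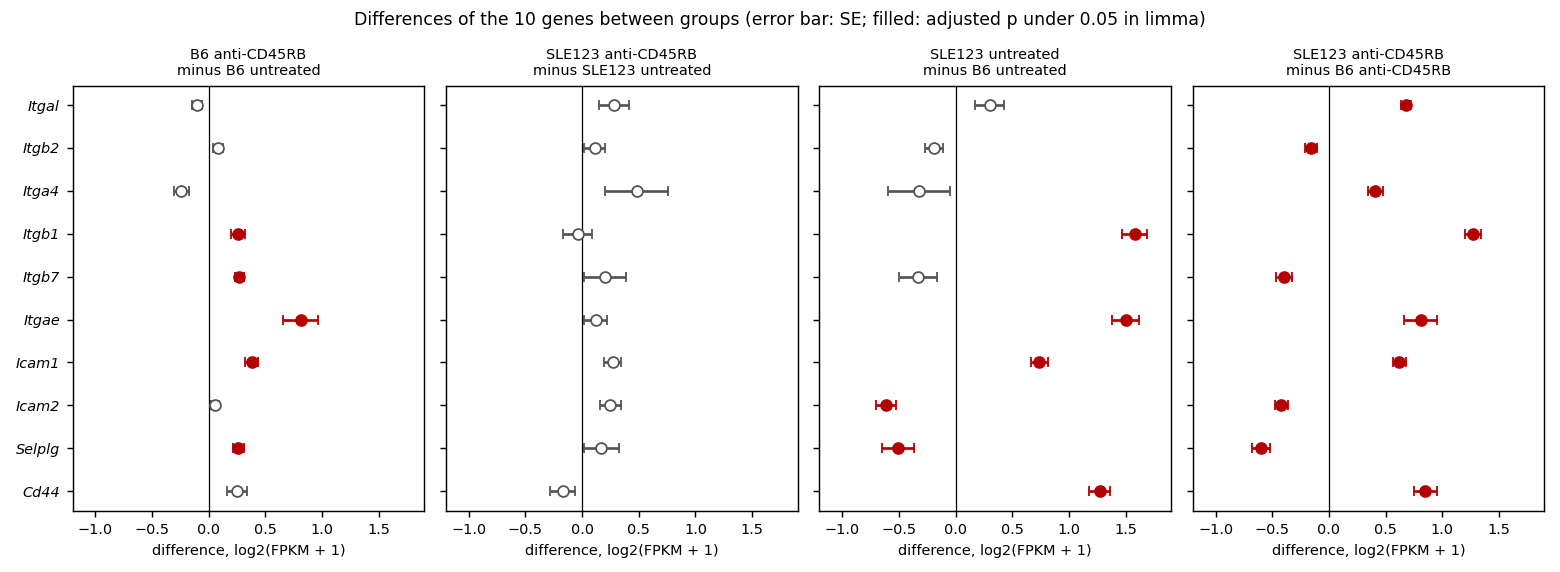
Difference of each gene on the log2(FPKM + 1) scale (horizontal axes) with its SE in the 2 treatment and 2 strain comparisons; filled points had an adjusted p under 0.05 in limma. In B6 mice 5 genes are filled, all above 0, in SLE123 mice none, between untreated strains 6 and between treated strains all 10, with Itgb1, Itgae, Icam1 and Cd44 above 0 and Icam2 and Selplg below 0 in both strain comparisons.

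The strains were compared within each condition. These comparisons use the same mice as the treatment comparisons, and the untreated and treated strain comparisons share no mouse. In untreated mice Itgb1, Itgae, Icam1 and Cd44 were higher in SLE123 than in B6 cells and Icam2 and Selplg were lower, 6 of 10 genes called beside 42.9% of all genes (22.8% higher and 20.1% lower). In treated mice all 10 were called beside 52.1% of all genes (29.6% higher and 22.5% lower). Besides the same 6 genes in the same directions, Itgal and Itga4 were higher and Itgb2 and Itgb7 lower in treated SLE123 mice. The median over the 10 genes was 0.05 in untreated and 0.51 in treated mice, against −0.03 and 0.03 over all genes. Groups without overlap were found for 4 genes higher and 4 lower in untreated mice (29.1% and 29.5% of all genes) and for 6 higher and 4 lower in treated mice (34.7% and 27.1%). Scaling moved the balance of calls over all genes between untreated strains from 53.2% higher to 24.3% in TPM and 67.4% when immunoglobulin genes were left out of the scaling, and that between treated strains from 56.8% to 35.3% and 66.5%. Among the members TPM gave 4 higher and 4 lower in untreated mice, with Itgb2 and Itgb7 added as lower, and the same 6 higher and 4 lower in treated mice. Over all 13115 genes TPM called 1914 higher and 5974 lower between untreated strains and 2442 higher and 4480 lower between treated strains.

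Itgb1 and Itgae had the largest strain differences of the 10 in untreated mice, with Itgb1 ahead by less than the SE on the log2(FPKM + 1) scale and Itgae ahead in the ratio of means. Itgb1 read 237, 202 and 194 FPKM in untreated SLE123 mice against at most 75.2 FPKM in untreated B6 mice, a 3.02-fold ratio of means (1.58 ± 0.109, adjusted p = 5.92e-05 in limma). In treated mice it read 181, 218 and 215 FPKM in SLE123 and at most 86.8 FPKM in B6 (2.44-fold, 1.27 ± 0.0746, adjusted p = 4.94e-05). Cd44, the hyaluronan receptor, read 44.2, 39.1 and 48.2 FPKM in untreated and 34.5, 40.1 and 41.9 FPKM in treated SLE123 mice. All of these lay above the highest B6 mouse (24.1 FPKM), with 2.5-fold (1.27 ± 0.0948, adjusted p = 8.43e-05 in limma) and 1.83-fold (0.85 ± 0.102, adjusted p = 0.000635) ratios.

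Itgae was 5.27-fold higher in untreated SLE123 than in untreated B6 mice (3.96 ± 0.475 and 0.752 ± 0.131 FPKM, SD, n = 3), a difference of 1.5 ± 0.119 (adjusted p = 0.000112 in limma). After treatment of both strains the ratio was 2.08-fold (4.38 ± 0.132 and 2.11 ± 0.593 FPKM, adjusted p = 0.00344). Icam1 was at 23.4 ± 1.25 and 13.6 ± 0.337 FPKM in untreated SLE123 and B6 mice and at 28.3 ± 1.22 and 18.1 ± 1.17 FPKM in treated ones. The strains did not overlap in either condition, with differences of 0.74 ± 0.075 (adjusted p = 0.000333 in limma) and 0.62 ± 0.0585 (adjusted p = 0.000244). Its level in treated B6 mice stood between those of untreated B6 and untreated SLE123 mice, without overlap with either.

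The other LFA-1 ligand went the other way. Icam2 read 34.6, 36.3 and 30.1 FPKM in untreated SLE123 mice against 51.0, 50.6 and 53.6 FPKM in untreated B6 mice (−0.61 ± 0.0882, adjusted p = 0.00172 in limma), and −0.42 ± 0.056 separated treated mice (adjusted p = 0.000947). Selplg was lower as well, at 142, 163 and 112 FPKM in untreated and 173, 145 and 148 FPKM in treated SLE123 mice. Each of these was below the lowest B6 mouse (186 FPKM), with differences of −0.51 ± 0.14 (adjusted p = 0.0234 in limma) and −0.60 ± 0.0765 (adjusted p = 0.000823). In untreated mice the call of Selplg was lost without B6 mouse 3 (adjusted p = 0.062), 4 (0.0844) or 5 (0.0827).

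The LFA-1 chains differed in opposite directions between treated strains. Itgal read 231, 252 and 252 FPKM in treated SLE123 mice against 151, 155 and 151 FPKM in treated B6 mice (1.61-fold, 0.68 ± 0.0452, adjusted p = 6.98e-05 in limma). Itgb2 was at 203 ± 3.93 and 226 ± 13.6 FPKM (SD, n = 3), a difference of −0.16 ± 0.0505 (adjusted p = 0.0381) that was lost without treated B6 mouse 1 (0.0864) or 5 (0.118) or treated SLE123 mouse 2 (0.11) or 3 (0.0994). In untreated mice neither passed (Itgal 0.30, adjusted p = 0.0931, Itgb2 −0.19, adjusted p = 0.103, in limma), and the difference of Itgal turned to −0.09 in TPM. Untreated SLE123 mouse 2, was the lowest of its group for Itgal at 169 FPKM, and without it Itgal was called higher (0.42, adjusted p = 0.00757).

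Itga4, the longest transcript of the 10 (9767 bases), was at 63.5 ± 3.21 FPKM in treated SLE123 and 47.8 ± 3.81 FPKM in treated B6 mice (SD, n = 3; 0.41 ± 0.0663, adjusted p = 0.00231 in limma). In untreated mice it was not called (−0.32, adjusted p = 0.37), with 47.9 ± 19.9 FPKM in SLE123 around 56.7 ± 3.21 FPKM in B6. That difference became 0.00 without untreated SLE123 mouse 2 and a call of −0.61 (adjusted p = 0.0428) without mouse 1. The 2 mice were those in which long transcripts as a class were low and high. Itgb7 was lower in treated SLE123 than treated B6 mice (326, 285 and 277 against 383, 378 and 413 FPKM, −0.40 ± 0.0709, adjusted p = 0.00322 in limma). In untreated mice the groups did not overlap but the test was not passed (−0.33, adjusted p = 0.149), although it was passed without SLE123 mouse 2 (−0.47, adjusted p = 0.0369) and in TPM (−0.72, adjusted p = 0.0178).

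T cell state and other markers moved with the strains too. All 5 naive T cell markers were called lower in SLE123 mice in both conditions (summed 582 to 1020 against 1670 to 1760 FPKM in untreated and 935 to 1140 against 1490 to 1640 FPKM in treated mice). Of 6 regulatory T cell markers 5 were called higher in both (4 in TPM in untreated mice; 200 to 214 against 48 to 61.7 FPKM and 206 to 242 against 56.8 to 67.5 FPKM), and of 10 activated or memory markers 8 were higher and 1 lower in untreated and 7 higher and 3 lower in treated SLE123 mice. All 5 plasma cell markers were higher in both, and treated mice gave 1040 to 1920 FPKM in SLE123 against 92.8 to 195 FPKM in B6. Between untreated strains 6 of 6 B cell (62 to 223 against 6.11 to 7.3 FPKM), 5 of 6 myeloid, 5 of 5 basophil (96.3 to 108 against 2.41 to 3.04 FPKM) and 4 of 4 erythroid markers tested were also higher in SLE123. Higher there too were 2 of 4 platelet (1 in TPM), 1 of 4 dendritic cell (0 in TPM) and 1 of 4 NK cell markers. Lower were 1 NK cell and 5 of 5 liver markers. Between treated strains 3 of 6 myeloid, 4 of 4 platelet and 3 of 4 NK cell markers tested were lower in SLE123. So were 2 of 4 dendritic cell markers. Of 6 B cell markers 3 were higher and 2 lower. Of 9 T cell markers 4 were higher and 2 lower (1 and 4 in TPM). Higher were also 2 of 5 basophil markers (0 in TPM) and 1 NK cell marker. The 1 CD8 marker tested was lower in both conditions. No regulatory T cell or plasma cell marker was at 0 in any library. Their part in the strain differences of the 10 genes was not tested.

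Because integrin chains work in pairs, the ratios of their mRNA levels were taken in each mouse, as a description with no test. Itgb7 exceeded its competitor for Itga4, Itgb1, by 4.35 to 5.14 times in untreated and 4.41 to 4.93 times in treated B6 mice. The same ratio was 1.02 to 1.55 in untreated and 1.29 to 1.8 in treated SLE123 mice, so no SLE123 mouse reached the range of B6. Itgal to Itgb2 was 0.629 to 0.814 in the 6 B6 mice and 0.92 to 1.26 in the 6 SLE123 mice. Itga4 to Itgb1 was 0.816 ± 0.101 in untreated and 0.569 ± 0.0255 in treated B6 mice (SD, n = 3), without overlap, and 0.141 to 0.33 in SLE123 mice. For the gut-homing pair, Itga4 to Itgb7, B6 mice ranged from 0.114 to 0.187 and SLE123 mice from 0.0911 to 0.249, so that the strains overlapped. Itgae stayed a small part of Itgb7 everywhere, from 0.00202 to 0.00621 in B6 and 0.0119 to 0.0227 in SLE123 mice. Such ratios of mRNA per length do not give the ratio of proteins on the cell.

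**Figure D3:**
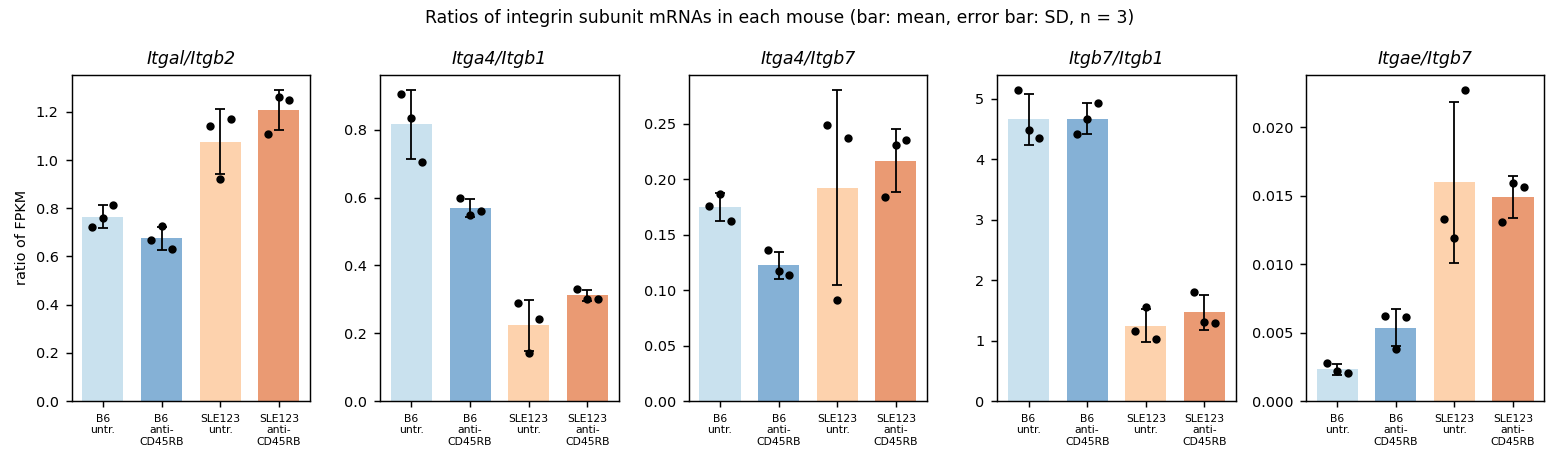
Ratio of the FPKM of the named integrin chains (vertical axes, each from 0) in the 4 groups of 3 mice; points are mice, bars are group means and error bars are SD. Itgb7 to Itgb1 lies at 4.35 to 5.14 in all B6 mice and at 1.02 to 1.8 in all SLE123 mice, and Itgal to Itgb2 lies above 0.9 only in SLE123 mice.

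The rest of the adhesion machinery was read in 7 lists with 95 genes, of which 94 were in the table and 68 were tested. In B6 mice 15 of the 68 were called higher with treatment and 3 lower (26.5%, beside 14.9% of all genes). Among other alpha chains 5 of 13 were higher and none lower (1 lower in TPM), with Itgax at 2.94 ± 0.306 and 0.307 ± 0.132 FPKM (SD, n = 3; 1.59, adjusted p = 0.000653 in limma) and Itgam at 4.6 ± 0.995 and 1.67 ± 0.269 FPKM (1.06, adjusted p = 0.00672). Both pair with Itgb2 and are known from dendritic and myeloid cells, whose markers were also higher in these libraries, as given above, although Itgax is itself 1 of the dendritic cell markers and a large part of their sum. Of 12 enzymes that build selectin ligands 4 were higher and none lower, including Fut7, the fucosyltransferase that completes the ligand on PSGL-1 (1.8 ± 0.29 and 0.868 ± 0.131 FPKM, 0.58, adjusted p = 0.0164). Spn, the mucin CD43, rose to 220 ± 14.6 from 171 ± 4.04 FPKM (0.36, adjusted p = 0.00679), and Ezr, the ezrin that ties CD44 and PSGL-1 to the cytoskeleton, to 240 ± 6.35 from 161 ± 3.79 FPKM (0.57, adjusted p = 0.000422). Of 19 activators and adaptors, such as talin and the Rap1 regulators, 1 was higher and 1 lower.

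In SLE123 mice treatment called none of the 68 genes in limma. Between untreated strains 17 were higher and 22 lower (57.4%, beside 42.9% of all genes), and between treated strains 15 were higher and 29 lower (64.7%, beside 52.1%). In TPM these became 13 higher and 36 lower and 12 higher and 34 lower. Over all 13115 genes TPM called 1914 higher and 5974 lower and 2442 higher and 4480 lower. Of the TPM calls in the lists 26.5% and 26.1% were higher, beside 24.3% and 35.3% of those over all genes. Of 19 activators and adaptors 8 were lower and 1 higher in untreated (14 and 0 in TPM) and 11 lower and 3 higher in treated SLE123 mice (14 and 1 in TPM). Rasgrp1, an exchange factor downstream of the T cell receptor, was at 39.1 ± 10.1 FPKM in untreated SLE123 and 113 ± 8.02 FPKM in untreated B6 mice (SD, n = 3; −1.54, adjusted p = 0.000451 in limma). Rasgrp2, which activates Rap1 for integrins, was at 26.5 ± 6.22 and 63.9 ± 3.09 FPKM (−1.26, adjusted p = 0.00112). Rap1a was the 1 gene of the list called higher, a call that TPM ended (101 ± 8.11 and 63 ± 2.95 FPKM, 0.67, adjusted p = 0.00108). The other Rap1 gene, Rap1b, was called lower (186 ± 18.3 and 261 ± 17.3 FPKM, −0.49, adjusted p = 0.0103 in limma).

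Other integrin beta chains differed in both directions in untreated mice. Itgb3 was lower in SLE123 (13.2 ± 2.42 against 46 ± 2.34 FPKM, SD, n = 3; −1.74, adjusted p = 8.7e-05 in limma), whereas Itgb8 (6.97 ± 2.11 against 0.825 ± 0.2 FPKM, 2.1, adjusted p = 0.000332) and Itgb5 (3.73 ± 1.35 against 0.179 ± 0.0528 FPKM, 1.97, adjusted p = 0.000299) were higher. Their alpha partner Itgav was higher as well (14 ± 3.79 against 5.65 ± 0.0436 FPKM, 1.14, adjusted p = 0.00286), and Itga6, a laminin receptor chain, was lower (22.6 ± 7.17 against 55.9 ± 2.02 FPKM, −1.31, adjusted p = 0.00215). Spp1, the secreted CD44 ligand osteopontin, was at 34.6 ± 8.59 against 0.227 ± 0.124 FPKM (4.83, adjusted p = 6.43e-06 in limma), and Alcam, an adhesion receptor that binds CD6, at 7.77 ± 1.88 against 0.961 ± 0.111 FPKM (2.14, adjusted p = 0.000105). In treated mice Itgb3, Itgb8, Itgb5, Itgav, Itga6, Spp1 and Alcam were called in the same directions.

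The interaction called 5 of the 68 genes in limma, all lower (7.35%, beside 3.64% of all genes). In TPM it called 3 of the 68, all lower, and over all genes 171 higher and 259 lower. The 5 called in the main fit were Itgax (−2.32, adjusted p = 0.00364), Itga2b (−1.24, adjusted p = 0.00449), Itgb5 (−1.14, adjusted p = 0.0369), Fut7 (−0.62, adjusted p = 0.0435) and Itgam (−0.97, adjusted p = 0.0436). The interaction was also called, and lower, for 4 of 6 myeloid markers, 2 of 4 dendritic cell markers (1 of them Itgax itself), 3 of 4 platelet markers (1 of them Itga2b), 5 of 5 basophil, 3 of 4 erythroid, 3 of 6 B cell, 2 of 4 NK cell and 3 of 10 activated or memory markers. Their part in these 5 results was not tested.

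**Figure D4:**
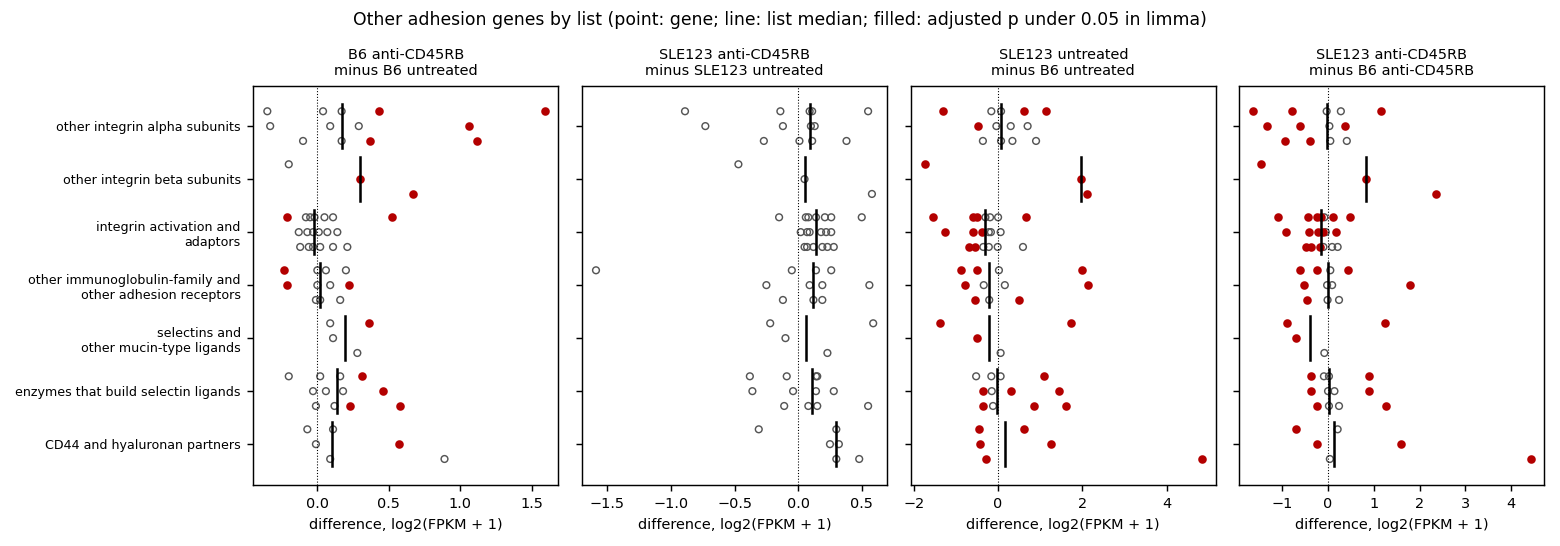
Differences on the log2(FPKM + 1) scale (horizontal axes, which differ between panels) of the 68 other adhesion genes tested, by list; each point is a gene, the vertical line is the median of the list and filled points had an adjusted p under 0.05 in limma. Filled points number 18 for treatment in B6 mice, 0 for treatment in SLE123 mice, 39 between untreated strains and 44 between treated strains.

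For each member the 3 genes with the most similar pattern over the 12 mice were listed by Pearson's r of log2(FPKM + 1), as a description of libraries that share strain and treatment. Itgb1 was nearest to Nfil3 (r = 0.995), Nrp1 (0.995) and Mdfic (0.994), of which Nrp1 is on the list of regulatory T cell markers. Cd44 was nearest to the immunoglobulin genes Igkv12-44 (0.997) and Ighg2b (0.995) and to Xkr6 (0.995). Itga4 was nearest to Vps13a (0.991), Rel (0.981) and C2cd3 (0.974), and Itgal to Malt1 (0.981), Gm9821 (0.975) and Ntrk3 (0.973). Icam2 had Zbtb7b (0.991), Sema4a (0.991) and Sgk1 (0.989), Selplg had Mknk2 (0.99), Tprgl (0.986) and Npc2 (0.983), and Itgb7 had Pitpna (0.985), Tpm3 (0.985) and S1pr4 (0.981). Itgae (Rab1a 0.978, Perp 0.97, Racgap1 0.969) and Icam1 (Hk1 0.982, Racgap1 0.978, Csrp3 0.977) shared Racgap1, and Itgb2 had the lowest values (Cast 0.965, Ap1g2 0.962, P4ha2 0.959).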

How the data were processed

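Total RNA of purified CD4+ T cells from 12 mice was sequenced after poly-A selection. Per the submitters' processing notes, CASAVA 1.8, STAR (version not given in the sources used here) and the mm10 build were used; the annotation, the counting program and the strand setting are not given in the sources used here. The authors removed adaptor and low-quality reads and deposited FPKM values per gene, and the study's own differential test (DESeq2) was not rerun. Ensembl identifiers were matched to GENCODE M21 symbols for 34490 of 35275 genes (97.8%). Whole fragments were recovered from the FPKM steps for 100% of the 23230 genes above 0 (tolerance 0.02), giving 13563705 to 23642948 fragments per library (median 16828748). A limit set by 3 fragments covers counting error only.

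Genes averaging 0.5 FPKM or more across all 12 mice (13115) were tested on log2(FPKM + 1) with limma 3.58.1 in R 4.3.3 (empirical Bayes with a trend, two-sided, Benjamini-Hochberg over all genes tested, threshold 0.05), with the 6 mice of each comparison, or all 12 for the interaction. Labels do not say how mice were housed or batched, so p-values measure the spread between these mice. The scripts were tested on simulated data. The 10 members, the 7 lists and the 15 marker lists were chosen with earlier results of these data known. Named genes were all members, from each list at most the 4 called genes with the smallest adjusted p in any comparison, and the 3 nearest genes of each member. A gene that this rule picks from the lists is not reported here. Itga2b, Rap1b, Cerkl, the marker genes and Alb fall outside that rule and were named after their values were seen. The alternatives tried were TPM, another pseudocount (0.1), no filter or 1 at 1 FPKM, median centring, voom on the recovered fragments, 1 fit of all 12 mice, the replicate number as a block, each mouse left out and, added after seeing the data, scaling to fragments outside the 257 immunoglobulin genes. Promoter windows came from RefSeq (GRCm38.p6).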

Additional observations from a re-analysis of the deposited data

How the results depend on the processing

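The count of members called in B6 treatment, 5, was 2 without a filter and 2 in 1 fit of all 12 mice, and 7 by voom. It ranged from 2 to 4 when 1 mouse was left out. Over all genes 1948 were called there, against 1134 without a filter, 815 in the fit of all 12 mice and 2717 by voom, and 675 to 1393 with 1 mouse left out. SLE123 treatment gave 0 members under every setting run (0 to 0 with 1 mouse left out), with 5 genes in all and 1 to 53 under the settings. The interaction gave 0 members, but 1 with a pseudocount of 0.1 (Itgae, −1.2, adjusted p = 0.0396 in limma), 1 by voom and 0 to 3 with 1 mouse left out. The counts over all genes with that pseudocount and by voom are not given here. Strain counts stayed within 1.5 times, at 5 to 8 in untreated mice (as reported 6) and 7 to 10 in treated mice (as reported 10). Over all genes the interaction called 478, and 205 to 2917 with 1 mouse left out, and the untreated strains 5621, and 3672 to 6469.

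Same-numbered mice are different animals, and their deviations correlated at −0.14 and −0.0936 in B6 and at 0.137, −0.161 and 0.266 in SLE123. Treated and untreated mice with different numbers correlated at −0.134 to 0.2 in B6 and −0.327 to 0.211 in SLE123. With so few mice these values can neither show nor exclude a pairing by number. With the number as a block, 0 members and 0 genes were called in B6 treatment (adjusted p 0.129 for Selplg to 0.247 for Itgae), where the groups share only 2 numbers. The block left 0 in SLE123 treatment, 7 between treated strains, where Itgb2, Itga4 and Itgb7 lost their calls and 3414 genes were called in place of 6836, and 0 in the interaction, with 34 genes in all against 478. No block could be fitted between untreated strains, which share 1 number.

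Signs turned for small differences. In SLE123 treatment Itgb1 turned to 0.15 and Cd44 to 0.02 in TPM, and Itgb1 to 0.04 without treated or untreated SLE123 mouse 1 (range −0.10 to 0.04 with 1 mouse left out). Between untreated strains Itgal turned to −0.09 in TPM, and Itga4 to 0.00 without SLE123 mouse 2 (range −0.61 to 0.00). In the interaction Itgb7 (0.13), Icam1 (0.07) and Selplg (0.11) turned in TPM, Itgb2 with median centring (−0.02), outside immunoglobulin genes (−0.03) and without treated B6 mouse 3 (−0.01), and Itgb7 (0.07) and Selplg (0.03) without untreated SLE123 mouse 2. With 1 mouse left out these ran from −0.01 to 0.08 for Itgb2, −0.26 to 0.07 for Itgb7 and −0.23 to 0.03 for Selplg. The cause was not tested. Of the results for single members under other settings, 721 kept their direction and side of the threshold, 37 lost and 18 gained a call and 14 turned. Outside immunoglobulin genes Itgal gained its call between untreated strains (0.42, adjusted p = 0.0355) and Itgb2 lost its call between treated strains (−0.09, adjusted p = 0.134).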
